A study of Homo sapiens with 16 samples.

Results

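Tumors grown from A375 cells, a human melanoma line that carries a BRAF mutation, were compared after treatment with JQ1 alone (J) or Vemurafenib alone (V). The comparison takes the 4 J tumors and the 4 V tumors of the 16 tumors sequenced, and the 12919 of 23260 gene symbols that had at least 1 FPKM (fragments per kilobase of transcript, scaled to the number of fragments mapped) in at least 4 of these 8 tumors. Of the symbols kept, 11815 reached 1 FPKM in all 8 tumors and 220 in exactly 4, while 256 symbols were left out with exactly 3. Each mouse carried a tumor on the left (L) and on the right (R) flank, and each group came from 2 mice: 26 and 29 for J, 16 and 19 for V, 2 and 5 for vehicle control, 33 and 34 for J+V. The hosts were NOG mice, immunodeficient animals that lack T, B and NK cells. By intraperitoneal injection they received vehicle, JQ1 at 50 mg/kg daily, Vemurafenib at 25 mg/kg given 2 times a day, or both drugs, and all tumors were removed on day 5. All groups share 1 cell line and 1 host strain, and the pair of tumors from 1 mouse is not a pair of independent animals.

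JQ1 is a small molecule that occupies the bromodomains of the BET proteins, which bind acetylated histones and help RNA polymerase II into elongation at many inducible genes. Vemurafenib blocks the mutant BRAF kinase, so that MEK and ERK, the MAPK pathway that drives growth in such cells, are less active and ERK target genes such as DUSP6 and CCND1 are transcribed less. Interferon-stimulated genes form a different program, in which interferons bound to their receptors act through JAK kinases and transcription factors to turn on antiviral proteins. Cells also switch on these genes through their own RNA and DNA sensors.

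The clearest difference between the drugs was in interferon-stimulated genes, which were higher in V than in J tumors. Genes higher in J included CCND1 (cyclin D1), the secreted factors HBEGF, LIF and CXCL1, and the laminin chain LAMB3. Of the 12919 genes tested, 41 (0.317%) passed the test between J and V at an adjusted p below 0.05, 22 (0.17%) of them higher in V and 19 (0.147%) higher in J. At an unadjusted p below 0.05 there were 1551 genes (12%), 1033 (8%) higher in J and 518 (4.01%) higher in V. All 41 called genes had J and V tumors that did not overlap, as did 4.86% of all genes with J higher and 2.69% with V higher. The number of calls rested on single tumors: it was 0 without J tumor 26L, 26R or 29R or V tumor 16R, 2 without V 19L, 3 without J 29L, 52 without V 16L and 110 without V 19R. The split between the drugs moved too, with 38 of 52 calls higher in V without V 16L, 34 of 43 with tumors scaled to a common FPKM sum, and 80 of 110 higher in J without V 19R. With 1 mean value per mouse all 41 calls were lost, and 1 other gene was called.

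The calls just inside the threshold were CALB2 and LOC100216001 (both at adjusted p = 0.0490), and those just outside were G0S2 (adjusted p = 0.0511) and TMCC3 (adjusted p = 0.0535). CALB2, IL1RL1 and ROBO4 entered the test through their J tumors alone, since no V tumor reached 1 FPKM. The sum of FPKM over all symbols ran from 1033864.6 to 1383426.2 in the J and V tumors, and snoRNAs made up 42.7% to 53.8% of it. The depth of the libraries is unknown.

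Among the melanoma markers, SOX10, MITF, MLANA, S100B, AXL and VIM were expressed in all tumors, while PMEL and TYR, 2 pigment genes, stayed below 1 FPKM in every one. The 8 melanoma markers summed to between 1111 and 1217 FPKM in J and between 763.0 and 966.6 in V, most of it VIM (vimentin), at 1033 to 1150 and 710.7 to 898.8 (adjusted p = 0.136). Markers of endothelial, lymphoid, adipocyte and keratinocyte cells did not pass the filter. The 7 fibroblast markers summed to between 60.8 and 78.6 FPKM in J and between 58.3 and 115.8 in V, with none called. Of 6 myeloid markers, CD68 and LYZ passed the filter, and the summed level was 25.8 to 28.5 FPKM in J and 18.5 to 26.3 in V. The muscle markers summed to 1.61 to 1.93 FPKM in J and to 1.405 to 7.73 in V, the highest in tumor 16L. Whether host cells had a part in any difference was not tested. In bulk tumors, fewer cells of a type and less RNA per cell cannot be told apart.

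Interferon-stimulated genes made up 15 of the 22 genes called higher in V. Of 47 tested members of an interferon-stimulated list, 46 had a higher mean in V. At an unadjusted p below 0.05, 41 were higher in V, against 4.01% of all genes. In the test 15 members were called higher in V (0.17% of all genes) and 0 were called in the other direction. The median difference, J minus V, was -1.03 on the log2 scale against 0.04 for all genes, and stayed between -1.19 and -0.90 when the scaling, filter, pseudocount, model, tumor or mouse was changed. In each pairing of a J mouse with a V mouse, at least 45 of the 47 members were lower in the J mouse, with medians from -1.20 to -0.91. The number of members called was 0 with 1 mean value per mouse, and also 0 without J tumor 26L, 26R or 29R or V tumor 16R.

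In the order 26L, 26R, 29L and 29R, IFIT1 (GRCh37 chr10:91152303-91166244, plus strand), which binds foreign RNA ends and blocks their translation, measured 12.3, 8.54, 18.3 and 14.7 FPKM in the J tumors. In V tumors 16L, 16R, 19L and 19R it measured 38.2, 114.5, 65.0 and 69.8 FPKM. Every V tumor lay above every J tumor, and the V mean of 71.8 ± 31.6 FPKM (SD, n = 4) was 5.34 times the J mean of 13.5 ± 4.08. The difference J minus V was -2.32 ± 0.39 (SE) on the log2 scale (adjusted p = 0.0266). Within the V group, tumor 16L was the lowest and tumor 16R, from the same mouse, the highest.

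IFI6, a small membrane protein that limits virus replication and cell death, was more abundant and showed the same order. Its J tumors (26L to 29R) measured 54.4, 32.7, 82.9 and 61.9 FPKM, and its V tumors (16L to 19R) 127.1, 519.2, 308.0 and 495.8 FPKM. The V mean was 6.25 times the J mean, a log2 difference of -2.52 ± 0.46 (adjusted p = 0.0340). The V tumor nearest to J was again 16L.

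MX1, a GTPase that traps viral nucleocapsids, measured 8.87, 5.59, 13.8 and 11.04 FPKM in J and 25.9, 71.8, 43.8 and 51.0 in V, a log2 difference of -2.21 ± 0.39 (adjusted p = 0.0285). RSAD2 (viperin), a radical SAM enzyme that makes a chain-terminating nucleotide, measured 2.04, 1.23, 2.45 and 2.03 FPKM in J and 5.82, 18.7, 13.2 and 11.2 in V, a log2 difference of -2.30 ± 0.38 (adjusted p = 0.0266). CMPK2, a mitochondrial nucleotide kinase, measured 1.97, 1.94, 2.99 and 2.84 FPKM in J and 6.64, 11.3, 7.22 and 8.33 in V. It had the smallest p of all genes, with a log2 difference of -1.59 ± 0.21 (adjusted p = 0.0182). The J and V tumors were apart in all 3 genes. On GRCh37, CMPK2 (chr2:6980701-7006766, minus strand) overlaps the start of RSAD2 (chr2:7005688-7038370, plus strand), and the sources used here do not say whether strand was used in counting.

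BST2 (tetherin), which holds budding virus at the cell surface, was at 10.9 ± 1.90 FPKM in J and 40.7 ± 10.6 in V (SD, n = 4), with V tumors from 29.9 to 55.2 and J tumors from 8.06 to 12.3 FPKM. IFI27 had the largest difference among the genes higher in V, from 1.13 ± 0.68 FPKM in J to 11.2 ± 6.38 in V, a 9.90-fold ratio of means that starts from a level near 1 FPKM. IFITM1, a membrane protein that hinders virus entry, was 3.16 times as high in V. The 3 oligoadenylate synthetases OAS1, OAS2 and OAS3, neighbours on chromosome 12, which activate RNase L when they meet double-stranded RNA, were 3.32, 3.55 and 2.38 times as high in V. IFIT3, a partner of IFIT1, was 2.74 times as high, HERC6, a ubiquitin ligase family member, 3.07 times and PARP9, an ADP-ribosyltransferase family member, 2.12 times. All of these were called, with adjusted p from 0.0266 for IFITM1 to 0.0404 for OAS2.

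**Figure D1:**
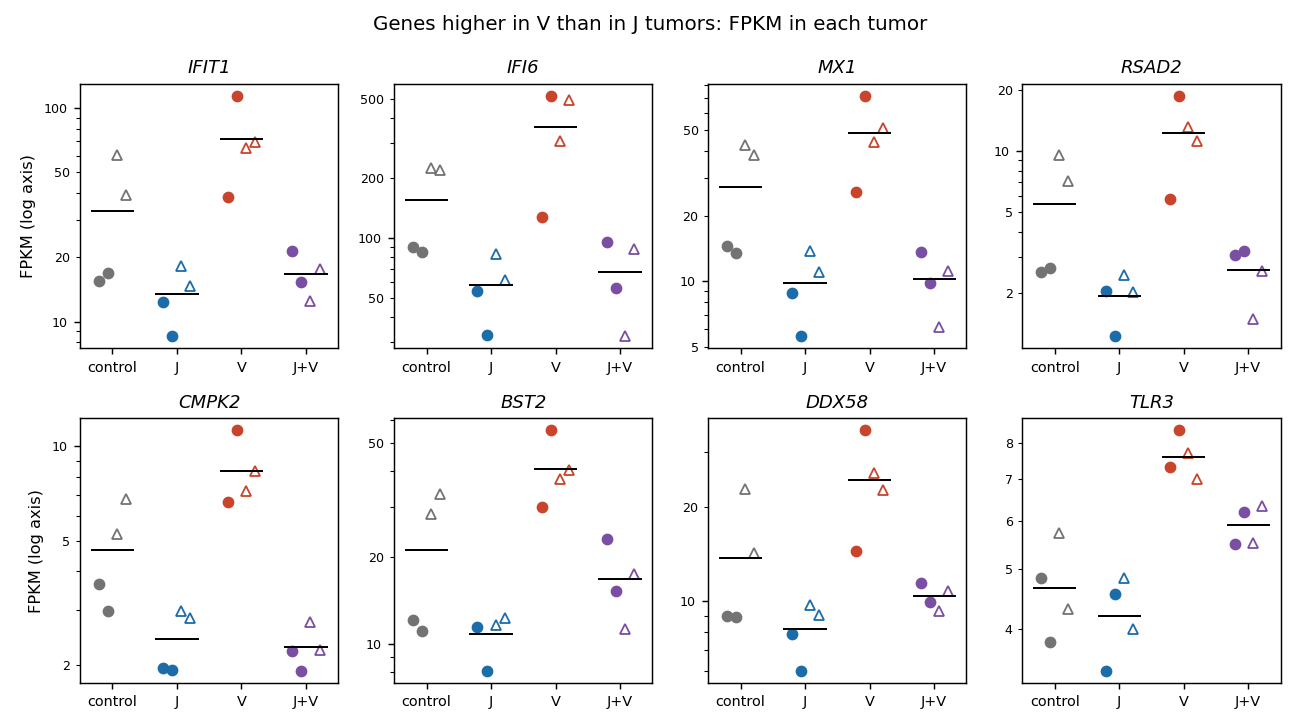
FPKM on log axes in each of the 16 tumors for 8 genes called higher in V than in J. Circles are tumors of the mouse with the lower number in each group, triangles those of the other mouse, and black lines are group means. For IFIT1 the V tumors lie between 38.2 and 114.5 FPKM and the J tumors between 8.54 and 18.3, while the control tumors split by mouse.

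A pair of sensors of foreign RNA, TLR3 and DDX58, were called higher in V. DDX58 is among the 15 called members of the interferon-stimulated list, and TLR3 is outside it. TLR3, the endosomal receptor for double-stranded RNA, measured 3.42, 4.57, 4.84 and 4.00 FPKM in the J tumors and 7.33, 8.40, 7.73 and 7.01 in the V tumors. Its tumors varied little within each group, and the log2 difference was -0.79 ± 0.11 (adjusted p = 0.0182). DDX58 (RIG-I), the cytosolic sensor of RNA with a 5′ triphosphate, measured 7.86, 6.003, 9.73 and 9.07 FPKM in J and 14.4, 35.1, 25.7 and 22.6 in V, a log2 difference of -1.48 ± 0.27 (adjusted p = 0.0340).

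To see the rest of the pathway, 35 genes upstream of the interferon-stimulated genes were listed after the result was known, and 25 of them passed the filter. Among the sensors, all 5 tested were higher in V at an unadjusted p below 0.05 (4.01% of all genes). TLR3 and DDX58 were called, and DDX58 was already counted in the interferon-stimulated list. IFIH1 (MDA5) was at 3.25 ± 0.68 FPKM in J and 7.88 ± 2.96 in V (adjusted p = 0.0721), IFI16 at 142.8 ± 19.0 and 212.3 ± 38.8 (adjusted p = 0.0802). IRF9, a transcription factor that binds interferon response elements, was at 11.7 ± 1.79 FPKM in J and 23.7 ± 3.97 in V (adjusted p = 0.0644). These last 3 genes missed the threshold.

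No call was made among the ligands and receptors of the pathway. The interferon genes IFNA2, IL29, IL28A and IL28B were listed at 0 in all 16 tumors, and IFNB1 did not exceed 0.18 FPKM in any. IFNA1 passed the filter, at 2.41 to 4.27 FPKM in J and 2.51 to 3.40 in V (adjusted p = 0.775). IFNE was at 22.8 to 28.0 FPKM in J and 13.9 to 35.7 in V, so the groups overlapped. The receptor gene IFNAR1 was at 12.7 to 14.8 FPKM in J and 12.8 to 15.6 in V, a log2 difference of -0.06 ± 0.09. The kinase JAK1 was at 27.5 to 29.2 FPKM in J and 25.6 to 29.3 in V, and the adaptor MAVS, TBK1 and IRF3 were not called. IRF1 was the 1 member of the interferon-stimulated list with a higher mean in J, at 4.23 ± 0.31 FPKM against 3.93 ± 0.68 in V (adjusted p = 0.760).

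The promoters of the called genes were read for short sequence motifs, because interferon-stimulated genes are known for the interferon-stimulated response element, which joins GAAA repeats. Promoter windows of 300 bases were taken from RefSeq (GRCh38.p14), running from 250 bases before to 50 after each start site, and both strands were searched. GAAA, any 2 bases and GAAA again, called ISRE-like here, were found in 9 of the 20 promoters matched among genes higher in V (45%), in 1 of 12 matched among genes higher in J (8.33%), in 2.99% of the promoters of all genes tested and in 3.65% of all promoters. Among the tested members of the interferon-stimulated list the ISRE-like letters were in 24 of 37 (64.9%). The upstream stretches below, 5′ to 3′ on the strand of the gene, show 5 of the 9 genes higher in V that hold these letters, chosen after their values were seen, with each match on either strand in capitals.
IFIT1 (chr10:89392482-89392541, plus strand): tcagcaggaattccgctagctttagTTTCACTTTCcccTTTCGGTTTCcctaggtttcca
IFI27 (chr14:94110603-94110662, plus strand): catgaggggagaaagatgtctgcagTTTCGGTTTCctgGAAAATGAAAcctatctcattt
IFI6 (chr1:27672314-27672373, minus strand): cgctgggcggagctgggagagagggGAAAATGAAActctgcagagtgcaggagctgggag
OAS3 (chr12:112938306-112938365, plus strand): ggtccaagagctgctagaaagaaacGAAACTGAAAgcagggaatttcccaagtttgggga
BST2 (chr19:17405726-17405785, minus strand): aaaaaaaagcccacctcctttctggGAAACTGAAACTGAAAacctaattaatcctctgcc
In IFIT1 and IFI27 a second match stands 3 bases from the first, and in BST2 overlapping matches make 1 run of 3 GAAA repeats. The first match printed begins 116 bases upstream of the start site in IFIT1, 108 in IFI27, 156 in IFI6, 143 in OAS3 and 130 in BST2. The AP-1 letters TGANTCA were in 0 of 20 promoters of genes higher in V and 2 of 12 of genes higher in J (16.7%), against 4.64% of genes tested. Those 2 were ANXA2 and IL1RL1. IL1RL1 entered the test through its J tumors alone, as did ROBO4, also among the 12. The ETS letters CCGGAAG were in 1 of 20 (5%) and 2 of 12 (16.7%), against 20.1% of genes tested. The CRE letters TGACGTCA and the E2F letters TTTCGCGC were in 0 promoters of either set, against 3.38% and 1.13%. A match is a description of the window and was not tested as a binding site.

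Relative to vehicle tumors the drugs lay on opposite sides for all 22 genes called higher in V and 17 of the 19 higher in J. These genes were chosen for their gap between J and V, which tends to leave control between the drugs. The counts below, including those of opposed genes, therefore describe the called genes and test nothing. In 22 genes (0.17% of those tested) J and V differed by the test, lay on opposite sides of control, and each differed from control at an unadjusted p below 0.05. In 16 of them V was higher, 12 of these from the interferon-stimulated list, and the others were ERO1LB, ANK2, IL13RA1 and CHGB. The 6 with J higher were LAMB3, IL1RL1, NMNAT2, ARHGAP22, FAM176A and C11orf68, of which IL1RL1 entered the test through its J tumors alone. IFIT1 was 1.08 ± 0.39 (SE) below control in J and 1.24 ± 0.39 above it in V on the log2 scale, and CMPK2 was 0.78 ± 0.21 below in J and 0.81 ± 0.21 above in V. No gene passed the adjusted threshold against control, either in J (1107 genes, 8.57%, at an unadjusted p below 0.05) or in V (2115 genes, 16.4%). The comparisons with control share the same 4 control tumors. Of the other called genes, 14 differed from control at an unadjusted p below 0.05 in V alone, among them CCND1, HBEGF, LIF, CXCL1, ANXA2 and TLR3. Another 5 did so in J alone (ROBO4, ABCC2, SEMA3B, GNAS and IFI27), of which ROBO4 also entered the test through its J tumors alone.

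**Figure D2:**
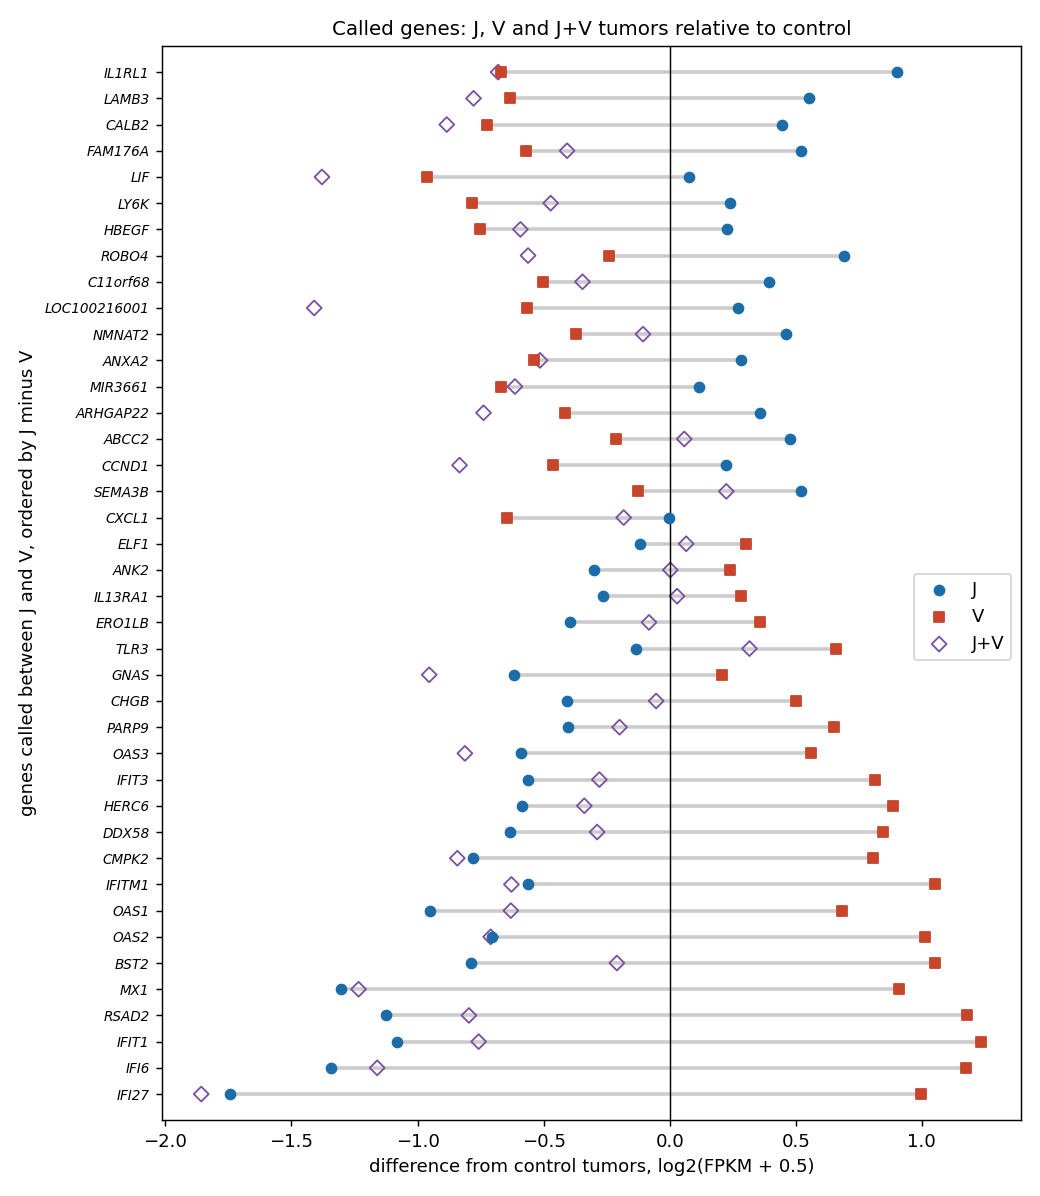
Fitted difference from the control tumors, on the log2(FPKM + 0.5) scale, for the genes called between J and V other than SNORD23. Blue circles are J, red squares V and open diamonds J+V, and genes are ordered by J minus V. IFIT1 lies at -1.08 in J and 1.24 in V, with its J+V diamond on the side of J.

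The position of control between the drugs depended on the control mouse. For IFIT1 the control tumors were at 15.4 and 16.8 FPKM in mouse 2 and at 60.3 and 39.0 in mouse 5. Mouse 2 thus lay within the range of the J tumors and mouse 5 within that of the V tumors. For the 22 genes called higher in V, the tumors of control mouse 2 overlapped the J range in 17 and the V range in 2, while those of mouse 5 overlapped J in 3 and V in 19. The count of opposed genes was 12 without control mouse 2, 3 without control mouse 5 and 0 without control tumor 5L. It was also 0 without J 26L, 26R or 29R or V 16R, 1 without V 19L, 2 without J 29L and 35 without V 19R.

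Averaged over the 47 interferon-stimulated genes and set against the control mean, the J tumors stood at -0.51, -0.70, -0.24 and -0.35 on the log2 scale and the V tumors at 0.17, 1.08, 0.66 and 0.74. The control tumors stood at -0.40 and -0.44 in mouse 2 and at 0.42 and 0.41 in mouse 5. All V tumors were therefore above all J tumors, whereas J tumors overlapped control mouse 2 and V 16L was below control mouse 5.

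**Figure D3:**
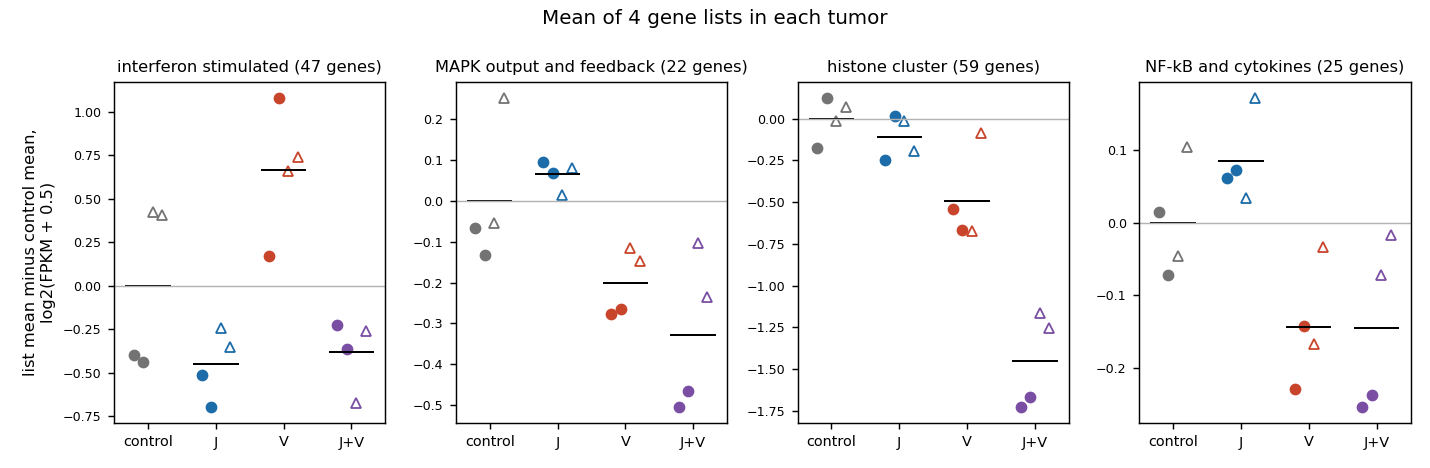
Mean of 4 gene lists in each tumor relative to the mean of the control tumors, on the log2(FPKM + 0.5) scale. Circles and triangles are the mice of each group and black lines the group means. In the interferon-stimulated list the V tumors (0.17 to 1.08) lie above the J tumors (-0.70 to -0.24), and the control tumors split by mouse.

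Genes of antigen presentation by MHC class I, which interferons also raise, leaned the same way without a call. Of 20 tested, 19 had a higher mean in V, 7 at an unadjusted p below 0.05 (4.01% of all genes). The median J minus V was -0.21. TAP1, the peptide transporter, was at 5.69 ± 0.89 FPKM in J and 8.74 ± 0.41 in V (adjusted p = 0.0947), and B2M, the light chain of MHC class I, at 1195 ± 84.9 and 1644 ± 236 (adjusted p = 0.227).

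Besides TLR3, 6 further genes higher in V were outside the interferon-stimulated list. GNAS, which encodes the stimulatory G protein alpha subunit that activates adenylyl cyclase, measured 402.6, 356.7, 312.5 and 323.6 FPKM in J and 666.6, 604.5, 631.2 and 568.6 in V. Its groups were far apart, the log2 difference was -0.83 ± 0.14 (adjusted p = 0.0266), and J lay 0.62 ± 0.14 below control while V lay 0.21 ± 0.14 above it. CHGB (chromogranin B), a protein of secretory granules, was at 32.6 ± 2.37 FPKM in J and 62.6 ± 13.4 in V (adjusted p = 0.0448). ERO1LB, an oxidase that feeds disulfide bond formation in the endoplasmic reticulum, was at 6.94 ± 0.92 and 12.03 ± 1.57 FPKM (adjusted p = 0.0266).

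IL13RA1, a receptor chain for the cytokines IL-13 and IL-4, was 1.47 times as high in V, ANK2 (ankyrin B), which ties membrane proteins to the cytoskeleton, 1.53 times, and ELF1, an ETS family transcription factor, 1.35 times (adjusted p = 0.0404, 0.0351 and 0.0389). Their J and V tumors did not overlap, though ELF1 ranged only from 20.8 to 24.6 FPKM in J and from 28.6 to 31.5 in V.

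CCND1 (cyclin D1, GRCh37 chr11:69455924-69469242, plus strand), the partner of CDK4 and CDK6 in G1 and an ERK target, measured 75.4, 74.9, 70.1 and 76.2 FPKM in the J tumors and 47.0, 40.6, 45.5 and 51.0 in the V tumors. Both groups were tight and well apart, with a log2 difference of 0.69 ± 0.13 (adjusted p = 0.0389). Against control, at 63.7 ± 5.75 FPKM, V was 0.46 ± 0.13 lower and J 0.22 ± 0.13 higher on the log2 scale.

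HBEGF, a ligand of the EGF receptor, measured 5.05, 3.57, 5.05 and 4.52 FPKM in J and 2.21, 1.99, 1.67 and 2.31 in V, a log2 difference of 0.98 ± 0.14 (adjusted p = 0.0182). LIF, a cytokine of the IL-6 family, measured 4.11, 5.85, 5.20 and 7.39 FPKM in J and 1.78, 2.48, 2.44 and 3.19 in V, a log2 difference of 1.04 ± 0.20 (adjusted p = 0.0404). CXCL1, a chemokine that attracts neutrophils, measured 9.196, 9.25, 7.97 and 9.10 FPKM in J and 4.75, 5.83, 5.19 and 6.31 in V, a log2 difference of 0.64 ± 0.12 (adjusted p = 0.0348). For these 3 secreted factors J was within 0.23 log2 units of control and V was 0.65 to 0.96 units below it.

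**Figure D4:**
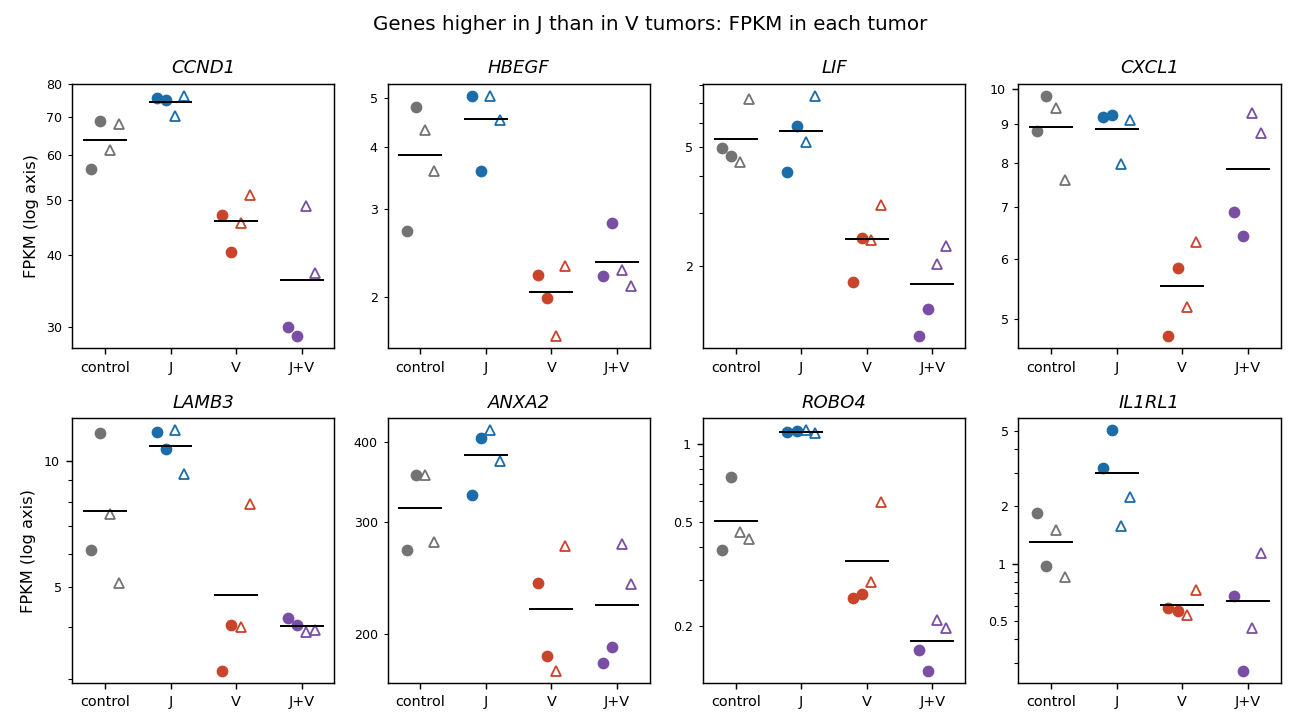
FPKM on log axes in each of the 16 tumors for 8 genes called higher in J than in V. Circles and triangles are the mice of each group and black lines the group means. CCND1 lies between 70.1 and 76.2 FPKM in the J tumors and between 40.6 and 51.0 in the V tumors. ROBO4 and IL1RL1 had no V tumor at 1 FPKM and entered the test through their J tumors alone.

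LAMB3, a chain of the basement membrane protein laminin-332, measured 11.8, 10.7, 11.9 and 9.34 FPKM in J and 3.14, 4.05, 4.00 and 7.90 in V, a log2 difference of 1.19 ± 0.23 (adjusted p = 0.0389), and it was among the 6 opposed genes with J higher. ANXA2 (annexin A2), a calcium-dependent membrane-binding protein, was at 381.9 ± 38.6 FPKM in J and 219.1 ± 47.2 in V (adjusted p = 0.0404). In both genes V tumor 19R was the V tumor nearest to J. SEMA3B, a secreted semaphorin, was at 5.11 ± 0.33 FPKM in J and 3.08 ± 0.12 in V (adjusted p = 0.0285). ABCC2 (MRP2), an efflux pump for organic anions, was at 6.64 ± 0.86 and 3.93 ± 0.59 FPKM (adjusted p = 0.0266). SEMA3B and ABCC2 differed from control at an unadjusted p below 0.05 in J and not in V.

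The remaining protein-coding and long noncoding genes higher in J had means from 1.11 to 17.2 FPKM in the J tumors. ROBO4, a guidance receptor known from endothelial cells, measured 1.11, 1.12, 1.12 and 1.095 FPKM in J and 0.26, 0.26, 0.30 and 0.60 in V, and the endothelial markers PECAM1, CDH5, KDR, VWF and TEK stayed below 1 FPKM in all J and V tumors. IL1RL1 (ST2), the receptor for IL-33, measured 3.18, 5.02, 1.57 and 2.24 FPKM in J and 0.58, 0.57, 0.54 and 0.73 in V. ROBO4, IL1RL1 and CALB2 had no V tumor at 1 FPKM and entered the test through their J tumors alone. NMNAT2, an NAD-synthesizing enzyme of axons, was 2.10 times as high in J, ARHGAP22, a GTPase-activating protein for Rac, 2.08 times, LY6K 2.31 times, FAM176A (EVA1A) 2.28 times, C11orf68 2.08 times, CALB2 (calretinin), a calcium-binding protein, 3.27 times and the noncoding LOC100216001 1.83 times.

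Of the small RNAs, 2 were called. SNORD23, a C/D box snoRNA, was listed at 0 in V tumors 16L, 16R and 19L and at 19.4 FPKM in 19R, against 40.9 to 88.0 FPKM in J, and control ran from 19.2 to 178.0. MIR3661, a microRNA precursor annotated inside PPP2CA on the opposite strand, was at 1254 ± 127 FPKM in J and 736.7 ± 141 in V. FPKM divides by length, so that in such short genes each fragment adds more to the value.

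Genes that report MAPK activity were mostly a little higher in J. Of 22 output and feedback genes, 18 had a higher mean in J, 7 at an unadjusted p below 0.05 (8% of all genes). CCND1 and LIF were called higher in J (0.147% of all genes), and the median J minus V was 0.15. The feedback phosphatase DUSP6 was at 120.4 ± 11.8 FPKM in J and 99.5 ± 7.06 in V (adjusted p = 0.388) and SPRY4, another ERK feedback inhibitor, at 30.6 ± 3.09 and 29.1 ± 3.19 (adjusted p = 0.896). EPHA2, a receptor tyrosine kinase, and FOSL1, an AP-1 subunit, had differences of 1.096 ± 0.31 and 0.88 ± 0.28 with adjusted p = 0.149 and 0.209. The median of the list was 0.06 both with a common FPKM sum and with quantile normalization.

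Among 30 receptor tyrosine kinases and ligands, HBEGF was the 1 gene called, higher in J (0.147% of all genes). At an unadjusted p below 0.05, 9 were higher in J and 2 in V, against 8% and 4.01% of all genes. Of 25 NF-kB factors and cytokines, CXCL1 and LIF were called higher in J (0.147% of all genes). At an unadjusted p below 0.05, 8 were higher in J and 1 in V, against 8% and 4.01% of all genes. In this list 19 genes had a higher mean in J, and the median was 0.16 against 0.04 for all genes. With a common FPKM sum 15 did so and the median was 0.07, and the median was 0.25 without V 16R and 0.10 without J 29R. IL8, a chemokine, was at 17.0 ± 2.84 FPKM in J and 8.31 ± 1.54 in V (adjusted p = 0.124). Its list also held the largest exception, CXCL10, an interferon-induced chemokine, at 1.36 ± 0.38 FPKM in J and 3.18 ± 1.47 in V (adjusted p = 0.266). ESM1, an angiogenesis factor, was at 17.3 ± 4.70 and 4.18 ± 2.23 FPKM (adjusted p = 0.0947). The secreted angiogenesis list held 1 called gene among 21, SEMA3B, higher in J (0.147% of all genes). At an unadjusted p below 0.05, 7 of its genes were higher in J and 1 in V, against 8% and 4.01% of all genes.

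Most histone and cell cycle genes had a higher mean in J, with 0 called. Of 59 histone cluster genes tested, of 73 listed in the data, 53 had a higher mean in J and 32 did so at an unadjusted p below 0.05, against 8% of all genes, and the median difference was 0.41. The 32 fell to 12 with a common FPKM sum, to 19 without J tumor 26R or 29L, to 12 without V 16R and to 15 without V 19L, and ran from 10 to 13 without mouse 16, 26 or 29, while the median stayed between 0.29 and 0.56. In HIST1H2BD the means were 256.1 ± 6.91 FPKM in J and 185.6 ± 36.97 in V (adjusted p = 0.0834). The mean of the list relative to control ran from -0.25 to 0.02 in the J tumors and from -0.67 to -0.09 in the V tumors, so that V 19R overlapped the J range. In the G1/S list 43 of 45 and in the G2/M list 57 of 59 genes had a higher mean in J, with medians of 0.23 and 0.22, and 10 and 4 of them had an unadjusted p below 0.05, against 8% of all genes. With a common FPKM sum the medians were 0.14 and 0.13 and both counts were 0, as they were without V 16R. MKI67, a proliferation marker, was at 23.9 ± 3.09 FPKM in J and 24.9 ± 3.59 in V (adjusted p = 0.950). Ribosome biogenesis genes had a median of 0.16, with 19 of 55 higher in J at an unadjusted p below 0.05.

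**Figure D5:**
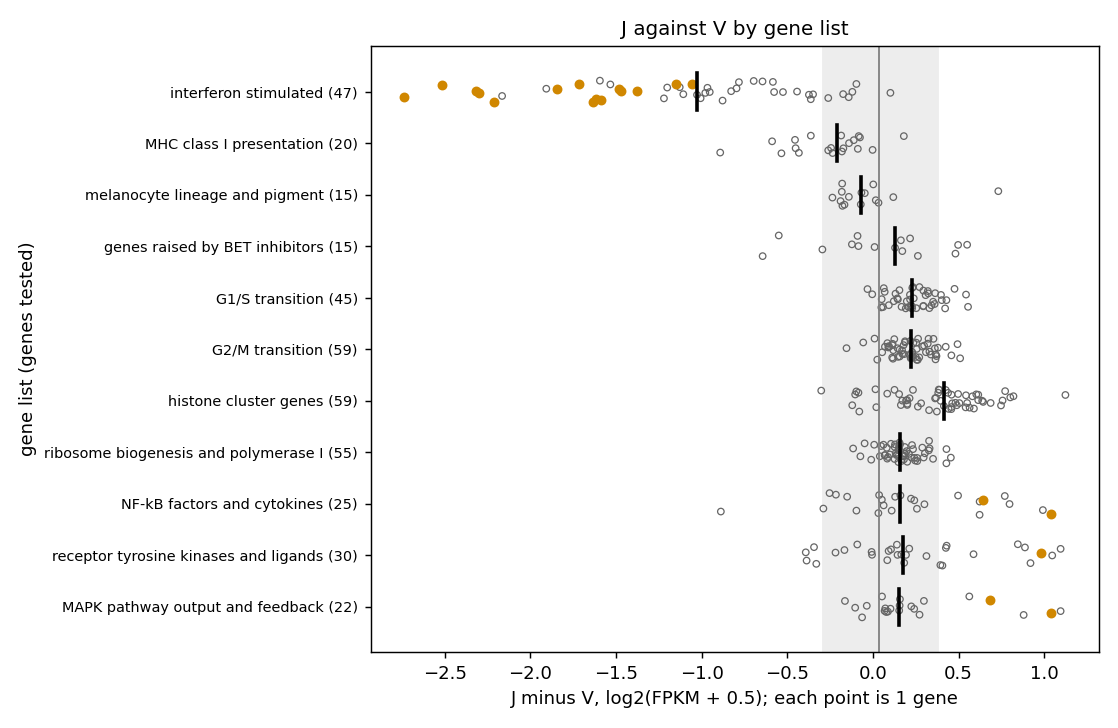
Difference J minus V on the log2(FPKM + 0.5) scale for each tested gene of 11 lists. Filled points are called genes, black bars are list medians, the grey line is the median of all genes (0.04) and the grey band spans the 5th to 95th percentile of all genes (-0.29 to 0.38). The interferon-stimulated list has its median at -1.03 and holds 15 called genes.

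Among genes tied to the target of JQ1 no call was made. Of 25 genes of BET proteins and P-TEFb, 0 were called and 1 had an unadjusted p below 0.05, against 12% of all genes. Of 15 tested genes of a list known to be raised by BET inhibitors, 2 were higher in J and 2 in V at that level. Over all genes the shares were 8% and 4.01%. Differences ran from -0.64 to 0.55. In each direction 1 gene had groups that did not overlap, against 4.86% of all genes with J higher and 2.69% with V higher. HEXIM1, an inhibitor of P-TEFb that BET inhibitors are known to raise in many cells, was at 12.6 ± 1.14 FPKM in J and 13.5 ± 1.33 in V (adjusted p = 0.803), and SERPINI1, another gene so known, at 3.54 ± 0.62 and 4.51 ± 1.19 (adjusted p = 0.549). BRD2 was at 38.7 ± 2.22 and 42.3 ± 3.26 FPKM (adjusted p = 0.614). MYC was at 5.11 ± 0.44 and 4.96 ± 1.76 FPKM (adjusted p = 0.884), and MITF, the melanocyte master regulator, at 9.30 ± 0.70 and 8.64 ± 1.86 (adjusted p = 0.795). These values do not show that the drugs act alike on these genes.

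EGR1, an immediate early gene downstream of ERK, was at 10.6 ± 2.61 FPKM in J and 11.8 ± 1.82 in V (adjusted p = 0.846). CDKN1A (p21), a CDK inhibitor, was at 10.2 ± 2.24 and 7.48 ± 0.92 FPKM (adjusted p = 0.299). HMGCS1, an enzyme of cholesterol synthesis, was at 32.0 ± 5.95 and 26.3 ± 7.19 FPKM (adjusted p = 0.664). Of 26 genes of cholesterol synthesis and uptake 25 had a higher mean in J. At an unadjusted p below 0.05, 3 were higher in J, against 8% of all genes.

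No gene was called in the lists that follow, and their counts at an unadjusted p below 0.05 stand against 8% of all genes higher in J and 4.01% higher in V. Of 20 cytosolic tRNA synthetases 18 had a higher mean in J, 7 at an unadjusted p below 0.05, with a median of 0.16, and of 26 heat shock proteins 22 did, 7 at an unadjusted p below 0.05, with a median of 0.13. Of 28 YAP and TEAD genes 7 were higher in J at an unadjusted p below 0.05 and 0 in V. Among 27 genes of endoplasmic reticulum chaperones and the unfolded protein response, 5 were higher in V and 1 in J at that level. The 81 cytosolic ribosomal protein genes had a median of -0.03 with 1 at an unadjusted p below 0.05, and the 84 oxidative phosphorylation subunits a median of 0.07 with 8 higher in J and 3 in V. In the 10 genes of the MYC and MAX network the median was 0.00.

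The combination tumors stood on the side of 1 drug or the other depending on the gene. The called genes were chosen with the same J and V tumors that are used again here, so the counts describe these genes and test nothing. For the 22 genes higher in V, the J+V mean was nearer to J in 19, and J+V passed the adjusted threshold below V in 17 (8.68% over all genes), above V in 0 (4.9%) and above J in 2 (8.71%). IFIT1 was at 21.3, 15.3, 12.5 and 17.7 FPKM in J+V tumors 33L, 33R, 34L and 34R, near the J tumors. For the 19 genes higher in J, the J+V mean was nearer to V in all but 3, and J+V passed it below J in 16 (19% over all genes). CCND1 was at 29.9, 28.9, 48.8 and 37.3 FPKM in the same J+V tumors, all but 34L below every V tumor. In 3 of the genes higher in V, TLR3, ERO1LB and IL13RA1, every J+V tumor lay above every J tumor and below every V tumor. The J+V tumors ran from 5.51 to 6.33 FPKM in TLR3, from 8.01 to 10.2 in ERO1LB and from 18.6 to 22.9 in IL13RA1.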

How the data were processed

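The authors made the deposited FPKM table from ribosome-depleted, strand-marking RNA libraries aligned to hg19. The submitters' notes name bcl2fastq, TopHat and Cufflinks, without versions, and the sources used here do not give the annotation. Low values showed no common step, so fragment counts and depth could not be recovered, and the count test of the study was not run. Intervals for counting error are therefore not given. Values were tested as log2(FPKM + 0.5) with limma 3.58.1 in R 4.3.3: all 16 tumors, a term per group, mouse as a block (correlation -0.0685), a mean-variance trend, two-sided, Benjamini-Hochberg over the 12919 genes, called at 0.05. A fold on this scale understates the change of low genes. Samples were grouped by the treatment labels. With 2 mice a group, p-values measure mostly the spread between tumors. The block correlation was negative, so the mouse block made the test less strict. It gave 41 calls and 22 opposed genes, against 25 and 14 with no mouse block. Members and lists were chosen with earlier results of these data known. The rule for named genes (called, mean of at least 5 FPKM, largest difference, list members, preset genes) gave 34 genes. The other 18 called genes, the genes not called and the 35 upstream genes were named after their values were seen. Gene lists got no test, only counts and medians. Scripts were tested on simulated data. Alternatives changed the pseudocount, filter, scaling, mouse term, tumors, flank term, moderation and threshold.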

Additional observations from a re-analysis of the deposited data

Results flagged for a closer look

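Dixon's ratio (the gap of the most extreme tumor to its nearest neighbour over the range of its group) was above the 95% critical value for 4 tumors in 6 of 156 tests, 52 genes in 3 groups of 4 tumors, where chance flags about 1 in 20. Among genes called between J and V, CXCL1 was low in J tumor 29L (7.97 FPKM against 9.10 to 9.25 in the other J tumors, ratio 0.884). ROBO4 was high in V tumor 19R (0.60 FPKM against 0.26 to 0.30, ratio 0.882), and SNORD23 was high in the same tumor (19.4 FPKM, with the other V tumors listed at 0, ratio 1). For the 2 genes of 19R the extreme tumor lay toward the J tumors. Among genes that were not called, SPRY4 was low in J tumor 29L (25.9 FPKM against 31.9 to 32.3, ratio 0.946), DUSP6 was high in control tumor 5R (151.4 FPKM against 112.8 to 116.6, ratio 0.901) and MYC was low in control tumor 5L (4.31 FPKM against 5.70 to 5.92, ratio 0.864).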

How the results depend on the processing

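Among the called genes J and V tumors did not overlap, so that leaving out a tumor could not turn their signs. The number of calls and their split changed, and the 6 list medians recomputed changed in size but not in sign. Of the genes not called, MITF, HEXIM1, MYC, SPRY4 and MKI67 changed sign in 1 to 3 of 26 alternatives. J against V gave 41 calls, and 5 with no filter, 26 at a mean of at least 5 FPKM, 67 with quantile normalization, 25 with no mouse block, 1 with the mean of each mouse and 124 with only the groups compared. Left out in turn, single tumors gave 0 to 110 calls. Without mouse 26 or 16 there were 0, without mouse 29 there were 2 and without mouse 19 there were 82 (66 higher in J). With the mean of each mouse none of the 41 calls was kept. Opposed genes numbered 22, and 1 with no filter, 14 at a mean of at least 5 FPKM, 14 with no mouse block, 0 with the mean of each mouse, 12 without mouse 2, 3 without mouse 5, 0 without mouse 26 or 16 and 2 without mouse 29. They ran from 0 to 35 over single tumors. Against control no gene was called in J or V, but with the upper quartile J had 1 and with the mean of each mouse J had 2. Over single tumors J had 0 to 118 and V had 0 to 440, the highest of each without control 5R. V had 181 without V 19R. Without mouse 5 there were 81 in J and 197 in V, without mouse 2 there were 1 and 2, and without mouse 19 V had 1. Scaling moved the split of calls: 22 of 41 were higher in V, and 34 of 43 with a common FPKM sum (median of all genes -0.05), 31 of 51 with the upper quartile and 46 of 67 with quantile normalization. Without V 19R 30 of 110 were, and without mouse 19 16 of 82. Opposed genes went from 6 with J higher and 16 with V higher to 22 and 13 without V 19R and 27 and 6 without mouse 19. Opposed genes were not run with only the groups compared. No paired analysis between the drugs was possible because no mouse carried tumors of more than 1 group. Each mouse belongs to 1 group, so mouse and treatment cannot be told apart beyond 2 mice a group, and unknown depth limits what can be said of genes near 1 FPKM.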
